A study of Mus musculus with 6 samples.

Results

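The ERK feedback and output genes are 10 transcriptional outputs and inhibitors of ERK signaling. They are the MAP kinase phosphatases *Dusp4*, *Dusp5* and *Dusp6*, the Sprouty genes *Spry1*, *Spry2* and *Spry4*, the SPRED genes *Spred1* and *Spred2*, and the ETS transcription factors *Etv4* and *Etv5*. They were picked by name for their known place in the pathway, and each name occurred in a single row of the expression table, so 10 of 55416 listed genes are described. RNA was sequenced from 3 WT and 3 *Ltf*-KO libraries of muscle satellite cells (SCs). The *Ltf*-KO mice are a whole-body knockout of lactoferrin, made by deleting several exons in C57/BL6N zygotes with CRISPR-Cas9, and no transgene or Cre is involved. The SCs of both genotypes were sorted from digested muscle on surface markers (Sca1 and CD11b negative, CD34 and α7-integrin positive). They were collected into medium with serum, chick embryo extract and basic fibroblast growth factor, an activator of ERK. The cells were then harvested at day 4 of growth on Matrigel, and the paper names no separate medium for that growth. No other treatment was given to either group. The labels give no age or sex, although the paper states a general age range, in weeks, for its mice. Nothing says whether libraries of a genotype came from separate mice. The p-values below therefore measure the spread between these libraries, which may be technical.

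In cells that receive a growth factor, receptor tyrosine kinases load RAS with GTP, and RAS starts the RAF, MEK and ERK kinase cascade. Active ERK raises the transcription of several of its own inhibitors, which makes a negative feedback loop. DUSP phosphatases remove the activating phosphates from ERK, Sprouty and SPRED proteins act further up on the steps around RAS and RAF, and *Etv4* and *Etv5* encode factors of the PEA3 group that carry part of the transcriptional response. In SCs fibroblast growth factor signaling through ERK promotes proliferation, and *Spry1* is known for its part in the return to quiescence. The question here was whether RNA of these genes differed in cells without *Ltf*, since the study addressed ERK signaling in such SCs. The RNA level of these genes is not a measurement of ERK phosphorylation.

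Expression was taken as TPM (transcripts of a gene relative to all transcripts, scaled to the same total in each library). The table names no unit, and TPM was inferred from its nearly equal library totals. TPM is corrected for gene length, but the totals alone cannot show that this correction was made. Comparisons of levels between different genes, ranks and shares included, rest on this inference. The libraries summed to between 993650 and 994360 TPM and held 12828 to 12951 genes at 1 TPM or more, and the depth behind a TPM value is unknown. *Ltf* itself was listed at 0.02 to 0.12 TPM in WT and at 0 to 0.03 TPM in *Ltf*-KO libraries, too low in both to check the labels. The myoblast markers were plain in all libraries, with *Myod1* at 748 to 816 TPM and *Pax7* at 36.6 to 43.3 TPM. The 7 genes of differentiating muscle were also present, with *Myog* at 266 to 508 TPM. Of the other cell types, macrophage markers were at or near 0 (*Ptprc* at 0 to 0.16 TPM and *Adgre1* at 0 to 0.08 TPM) apart from *Cd68* (3.12 to 3.98 TPM), the 4 endothelial markers summed to 4.86 to 9.70 TPM in WT and 4.50 to 9.85 TPM in *Ltf*-KO libraries, and the 3 Schwann cell markers summed to 9.91 to 18.8 and 11.2 to 16.8 TPM. The 6 fibroblast markers summed to 103 to 108 TPM in WT and 102 to 134 TPM in *Ltf*-KO libraries, mostly *Col3a1*. The 4 smooth muscle and pericyte markers summed to 444 to 528 TPM and 492 to 625 TPM, mostly *Acta2*. *Cspg4* was at 30.76 to 41.07 TPM, while *Myh11* was at 0.17 to 0.62 TPM and *Rgs5* at 0.12 to 0.46 TPM.

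The promoters of *Dusp5* and *Dusp6* are shown because both genes encode phosphatases that prefer ERK, while the windows differ in matches to motifs named below. They are the 250 bases before the gene start in RefSeq on GRCm38.p6, plus strand, for *Dusp5* at chr19:53528895-53529144 and for *Dusp6* at chr10:99262981-99263230, and capitals mark matches.
Dusp5: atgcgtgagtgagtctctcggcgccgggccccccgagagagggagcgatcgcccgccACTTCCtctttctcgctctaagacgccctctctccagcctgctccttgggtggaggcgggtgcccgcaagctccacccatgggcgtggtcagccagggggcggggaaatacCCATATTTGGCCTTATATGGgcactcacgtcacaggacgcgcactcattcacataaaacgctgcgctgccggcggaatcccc
Dusp6: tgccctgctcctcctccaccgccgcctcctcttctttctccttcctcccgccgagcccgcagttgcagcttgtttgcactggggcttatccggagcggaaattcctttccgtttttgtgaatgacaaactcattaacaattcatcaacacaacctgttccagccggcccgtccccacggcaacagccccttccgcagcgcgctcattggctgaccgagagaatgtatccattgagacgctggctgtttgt
Such windows were found for 7 of the 10 genes (8 windows, with 2 for *Etv5*). Each was searched on both strands for the CArG box bound by SRF, the ETS motif GGAAGT, the AP-1 motif TGANTCA and the CRE motif TGACGTCA, a choice made after the windows were read. *Dusp5* held 2 CArG boxes side by side, 82 to 73 and 72 to 63 bases before the start, and 1.47% of all 32851 windows of this length held such a box. *Dusp5* also held the ETS motif. The ETS motif was also present in *Spred2* and in 1 of the *Etv5* windows, against 19.7% of all windows. *Dusp6* held none of the 4 motifs in this window. AP-1 (6.75% of all windows) and CRE (1.55%) matches were found in 0 of the 8 windows. The windows were rich in G and C, from 56.0% in *Spred2* to 71.2% in *Etv5*, against a median of 52.4% over all windows. A match is a description of letters and not a bound site.

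All 10 genes were expressed in every library, and their levels spanned 5.13-fold. *Dusp4* was the highest at 90.1 TPM on average over the 6 libraries, above 88.0% of the 12956 genes whose mean reached 1 TPM. *Dusp5* (73.4 TPM) and *Spry2* (73.1 TPM) followed and could not be put in order, with *Dusp5* higher in 4 of 6 libraries. *Spred2* (49.5 TPM) and *Etv4* (45.7 TPM) came next, with overlapping ranges and *Spred2* higher in 5 of 6 libraries. *Dusp6* stood alone at 36.4 TPM, below *Etv4* and above *Spred1* in 6 of 6 libraries without overlap of the ranges. *Spred1* (20.6 TPM), *Spry1* (20.0 TPM), *Etv5* (19.2 TPM) and *Spry4* (17.6 TPM) formed a lowest group whose neighbouring ranges all overlapped. Between *Dusp4* and *Dusp5* the ranges over libraries overlapped too, although *Dusp4* was higher in 6 of 6 libraries.

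**Figure D1:**
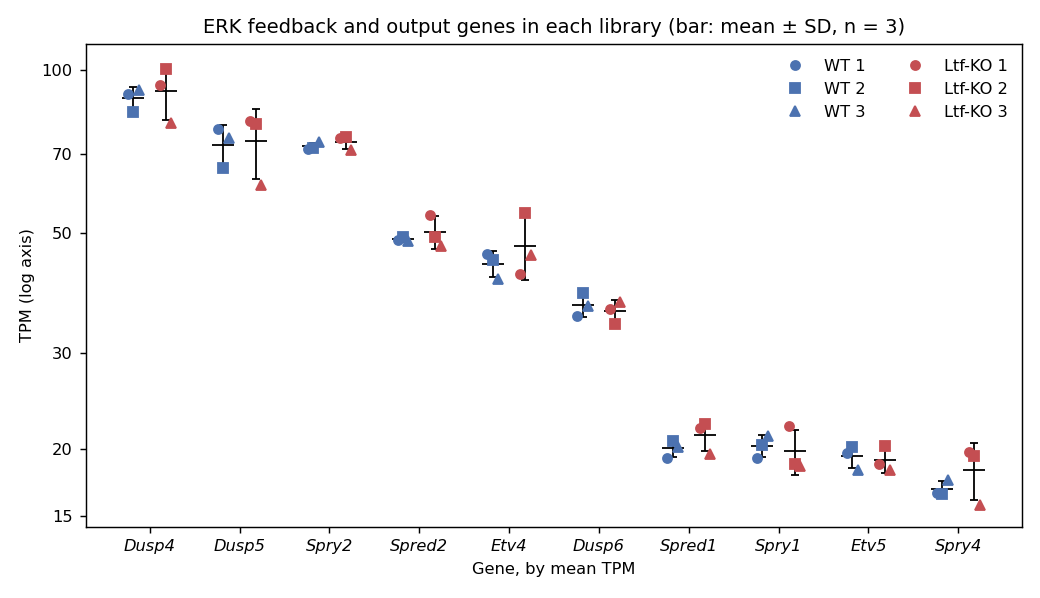
TPM on a log axis of the 10 genes in each of the 3 WT (blue) and 3 *Ltf*-KO (red) libraries, with marker shapes for the replicate number and black bars for the mean ± SD (n = 3). The genes run from *Dusp4* at 90.1 TPM to *Spry4* at 17.6 TPM on average, and the genotypes overlap for each of them.

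Within the Sprouty domain and PEA3 families these genes made up most of the RNA, and within the phosphatase family *Dusp4* and *Dusp5* led. The Sprouty domain (PF05210 in the table's Pfam column) was annotated for 6 genes, and the 5 described here held 97.1% of their summed mean TPM, with *Spred3* at 5.48 TPM as the sixth. The PEA3 domain was annotated for 3 genes, of which *Etv4* and *Etv5* held 90.1%, with *Etv1* at 7.13 TPM. The Rhodanese and dual specificity phosphatase domains occurred together in 11 genes, the form of the MAP kinase phosphatases. Of their summed 303 TPM *Dusp4* held 29.7% and *Dusp5* 24.2%. *Dusp1*, which acts on p38 and JNK as well, ranked 3rd at 42.5 TPM, and *Dusp6* ranked 4th. *Dusp4*, *Dusp5* and *Dusp1* encode nuclear enzymes, while the *Dusp6* protein acts in the cytoplasm. Among the 28 genes with an ETS domain *Etv4* ranked 2nd after *Elk3*, and *Etv5* ranked 8th. In the table's GO column, 6 of the 10 genes carried the term for negative regulation of the ERK cascade, against 0.340% of the genes tested, which is the knowledge by which they were picked. In its KEGG column only *Dusp4*, *Dusp5* and *Dusp6* belonged to the MAPK signaling pathway.

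**Figure D2:**
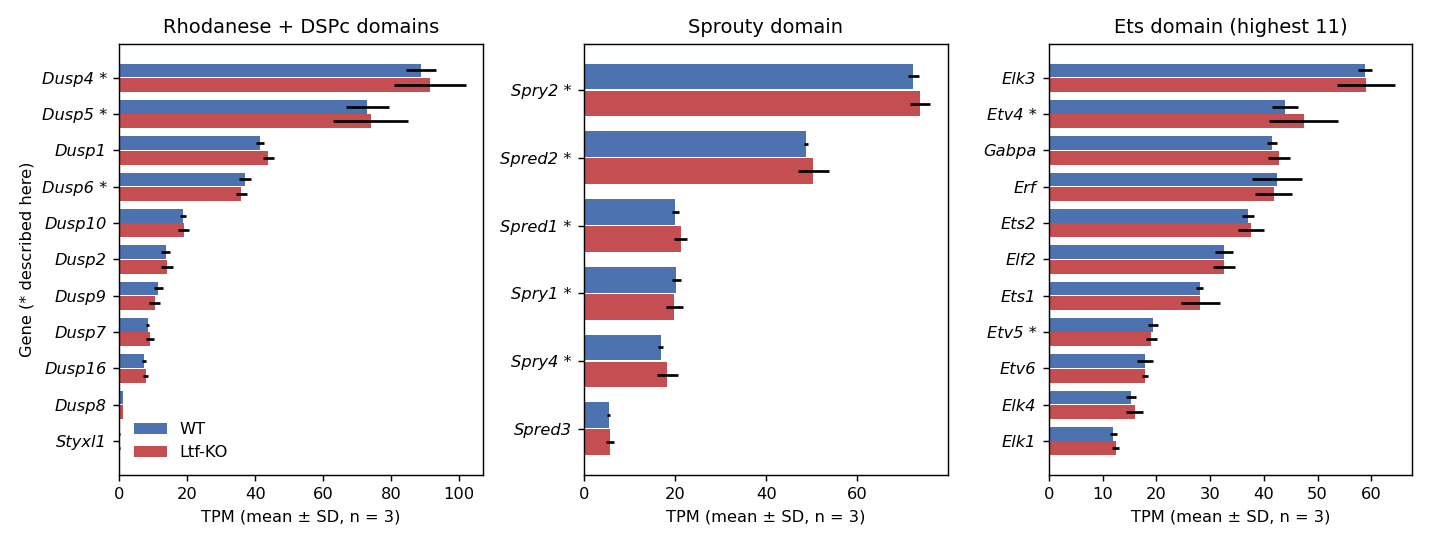
TPM (mean ± SD, n = 3) in WT (blue) and *Ltf*-KO (red) libraries of the 11 genes with Rhodanese and DSPc domains, the 6 genes with a Sprouty domain and the highest 11 genes with an Ets domain, with stars on the 10 genes described here. *Dusp4*, *Dusp5* and *Spry2* lead their families, and *Etv4* ranks 2nd among the ETS genes.

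The comparison of *Ltf*-KO with WT used limma on log2(TPM + 1) across the 12956 genes whose mean reached 1 TPM, and p-values were adjusted over them (Benjamini-Hochberg). On this scale the change of a low gene is understated, slightly so at the levels of these genes. All 10 genes passed the filter, and 0 of them differed between genotypes at a limma adjusted p under 0.05, where the share of all tested genes was 0%. At an unadjusted p under 0.05 the count was also 0 of 10, against 3.78% of all tested genes, and the smallest unadjusted p in the limma fit was 0.275, for *Spred1* (adjusted p = 0.999). The libraries of the 2 genotypes overlapped for all 10 genes, where 8.46% of tested genes did not overlap. The log2 fold changes (*Ltf*-KO minus WT) ran from -0.038 for *Dusp6* to 0.11 for *Spry4*, with 7 genes above 0 and 3 below. Their median was 0.032, beside 0.011 over all tested genes. In whole cultures, fewer cells of a type and less RNA per cell cannot be told apart.

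The intervals show how large a difference these libraries leave room for. *Spry2* was the most precise, with a 95% confidence interval from -4.52% to 8.89% of its WT value on the TPM + 1 scale. *Dusp5* had the widest interval, from -17.3% to 22.9%, and the highest upper bound was 26.6%, for *Etv4*. For *Dusp6*, a widely used readout of ERK output, the interval ran from -11.4% to 7.19%. The lower bound of *Dusp5* was the lowest of the 10 genes, and each of the 10 intervals included 0.

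Among the phosphatases, *Dusp4* was at 90.52, 83.80 and 91.95 TPM in WT and at 93.98, 100.34 and 79.86 TPM in *Ltf*-KO libraries. *Ltf*-KO 1 and 2 lay above every WT library and *Ltf*-KO 3 below them, so the genotypes overlapped. The mean was 88.8 ± 4.35 TPM in WT and 91.4 ± 10.5 TPM in *Ltf*-KO (SD, n = 3), a log2 fold change of 0.037 (standard error 0.088). *Dusp5*, whose protein binds and dephosphorylates ERK in the nucleus, was at 77.93, 65.86 and 74.98 TPM in WT and at 80.63, 79.72 and 61.32 TPM in *Ltf*-KO libraries. The order of the *Ltf*-KO libraries was again 2 high and 1 low, and the low library was the same. The means were 72.9 ± 6.29 and 73.9 ± 10.9 TPM (SD, n = 3), a log2 fold change of 0.011 (standard error 0.12). *Dusp6* was at 35.18, 38.74 and 36.64 TPM in WT and at 36.22, 34.03 and 37.39 TPM in *Ltf*-KO libraries. Here the low library was *Ltf*-KO 2, and *Ltf*-KO 3 lay inside the WT range. The means were 36.9 ± 1.79 and 35.9 ± 1.71 TPM (SD, n = 3), a log2 fold change of -0.038 (standard error 0.057).

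Among the Sprouty genes, *Spry2* was at 71.56, 71.78 and 73.64 TPM in WT and at 75.00, 75.17 and 71.18 TPM in *Ltf*-KO libraries. Its 6 values lay within 5.61% of each other (highest over lowest), the narrowest range of the 10 genes, and its log2 fold change was 0.028 (standard error 0.039). *Spry1* was at 19.26, 20.32 and 21.13 TPM in WT and at 21.99, 18.77 and 18.58 TPM in *Ltf*-KO libraries, and here *Ltf*-KO 1 alone was high (log2 fold change -0.034, standard error 0.079). *Spry4*, which was at 16.57, 16.47 and 17.48 TPM in WT and at 19.72, 19.39 and 15.75 TPM in *Ltf*-KO libraries, had the largest fold change of the 10 genes. Its *Ltf*-KO libraries 1 and 2 exceeded all WT libraries and *Ltf*-KO 3 fell short of all of them. The means were 16.8 ± 0.557 and 18.3 ± 2.20 TPM (SD, n = 3), a log2 fold change of 0.11 (standard error 0.092).

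The SPRED proteins share the Sprouty domain and add a WH1 domain, and they bring neurofibromin to RAS. *Spred1* was at 19.25, 20.70 and 20.13 TPM in WT and at 21.84, 22.21 and 19.57 TPM in *Ltf*-KO libraries, a log2 fold change of 0.077 (standard error 0.065). *Ltf*-KO 1 and 2 lay above the WT libraries and *Ltf*-KO 3 among them. *Spred2* was at 48.63, 49.27 and 48.30 TPM in WT and at 54.11, 49.30 and 47.46 TPM in *Ltf*-KO libraries, a log2 fold change of 0.042 (standard error 0.056). The WT libraries of *Spred2* were nearly equal, and *Ltf*-KO 1 lay above them, *Ltf*-KO 2 just above and *Ltf*-KO 3 below.

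For the transcription factors, *Etv4* was at 45.86, 44.68 and 41.17 TPM in WT and at 42.07, 54.57 and 45.67 TPM in *Ltf*-KO libraries. A single library, *Ltf*-KO 2, was high, and the other 5 lay between 41.17 and 45.86 TPM. Its log2 fold change was 0.10 (standard error 0.099), and it was -0.00079 without *Ltf*-KO replicate 2. *Etv5* was at 19.67, 20.14 and 18.27 TPM in WT and at 18.74, 20.19 and 18.27 TPM in *Ltf*-KO libraries, a log2 fold change of -0.021 (standard error 0.063), and the genotypes covered nearly the same range.

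**Figure D3:**
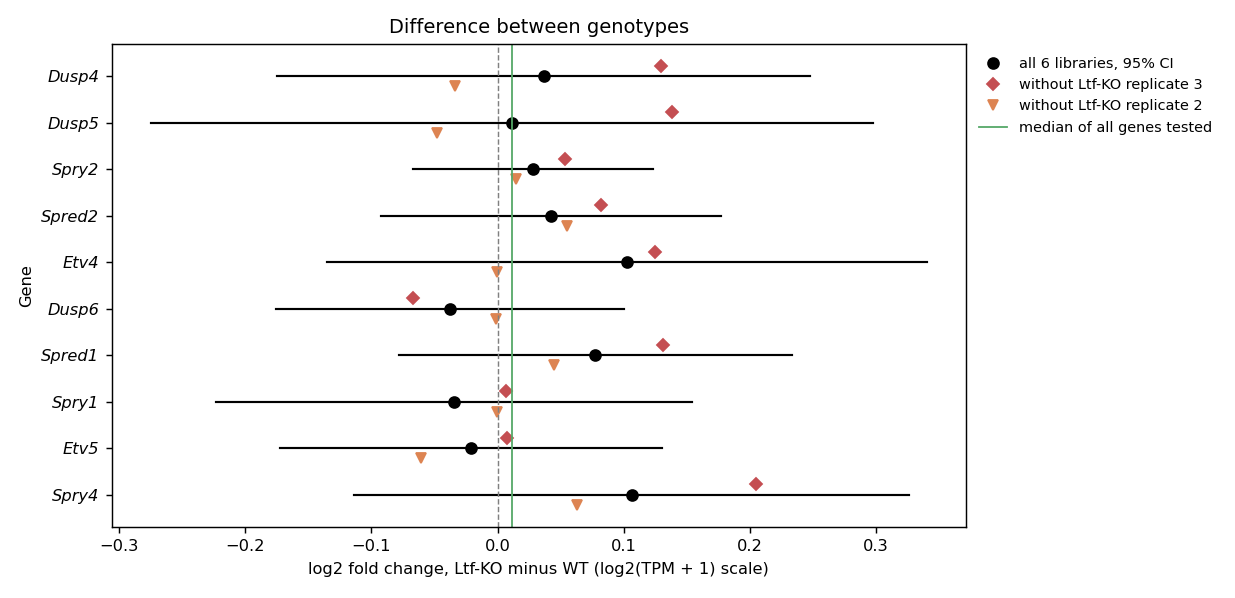
Log2 fold change (*Ltf*-KO minus WT, on the log2(TPM + 1) scale) of the 10 genes with its 95% confidence interval from limma (black, all 6 libraries), and the value without *Ltf*-KO replicate 3 (red) or 2 (orange). All intervals include 0, and 9 of the 10 values without replicate 3 lie above 0, against 7 with all libraries.

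The shares of the members within a family were compared as well, since a share within a library does not depend on how libraries were scaled. *Spry2* made up 66.1 ± 0.516% of the summed TPM of *Spry1*, *Spry2* and *Spry4* in WT and 66.0 ± 1.62% in *Ltf*-KO libraries (SD, n = 3). *Dusp4* made up 44.7 ± 0.406% and 45.4 ± 1.28% of the 3 phosphatases. *Etv4* made up 69.4 ± 0.539% and 71.2 ± 1.92% of *Etv4* and *Etv5* (SD, n = 3), a difference of 1.81 percentage points, which was 0.913 without *Ltf*-KO replicate 2 and 2.82 without *Ltf*-KO replicate 1. The two-sided exact permutation p of this difference was 0.3 (adjusted p = 0.933 over 8 shares), and with 3 libraries a genotype this test cannot go below 0.1.

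The *Ltf*-KO libraries differed among themselves more than the WT libraries did for most of these genes. The coefficient of variation was larger in *Ltf*-KO for 9 of the 10 genes, all but *Dusp6*, where 51.3% of all tested genes had the larger one there. Its median was 4.75% in WT and 8.26% in *Ltf*-KO, and over the 6681 genes with a mean of 10 to 100 TPM it was 5.58% and 5.85%. *Ltf*-KO 3 was the lowest of the 6 libraries for 6 genes (*Dusp4*, *Dusp5*, *Spry1*, *Spry2*, *Spry4* and *Spred2*) and shared the lowest value of *Etv5* with WT 3, where it was the lowest for 18.7% of all tested genes. For 5 genes (the same without *Spry1*) *Ltf*-KO 1 and 2 lay above every WT library and *Ltf*-KO 3 below every one, an arrangement that 2.74% of tested genes showed. Against the mean of the other *Ltf*-KO libraries, *Ltf*-KO 3 was at -23.5% for *Dusp5*, -19.5% for *Spry4* and -17.8% for *Dusp4*, and at 6.45% for *Dusp6*. These arrangements were singled out after the values were seen.

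**Figure D4:**
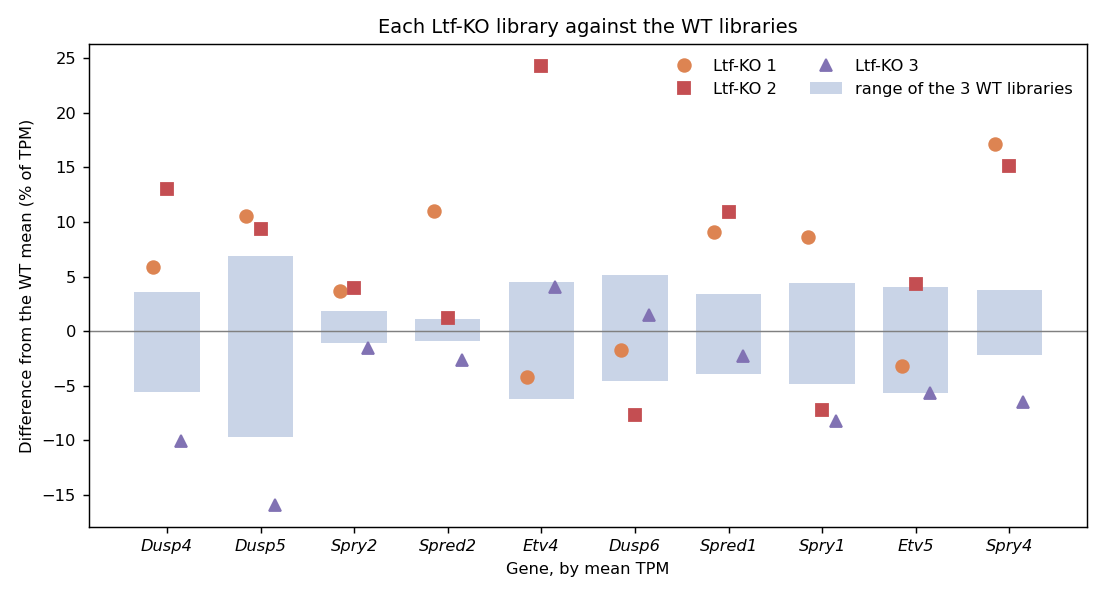
Difference of each *Ltf*-KO library from the WT mean, in percent of TPM, for the 10 genes, with blue boxes for the range of the 3 WT libraries. *Ltf*-KO 3 (purple) lies below the WT range for *Dusp4*, *Dusp5*, *Spry1*, *Spry2*, *Spry4* and *Spred2*, and *Ltf*-KO 1 and 2 lie above it for 6 genes, *Spred1* among them.

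The size of the median log2 fold change depended on single libraries, and its sign changed only without *Ltf*-KO replicate 2. Without *Ltf*-KO replicate 3, 9 of the 10 genes were higher in *Ltf*-KO and the median log2 fold change was 0.10, and *Spry4*, at 0.20, then had an unadjusted p of 0.0156 in the limma fit (adjusted p = 0.984, the smallest of the 10 genes). Without *Ltf*-KO replicate 2, 4 of 10 were higher and the median was -0.00061.

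Muscle differentiation genes also differed between these libraries. *Myog*, which encodes the factor that starts terminal differentiation, was at 319.30, 410.31 and 293.44 TPM in WT and at 360.37, 266.24 and 507.77 TPM in *Ltf*-KO cells. The highest value was in *Ltf*-KO 3, the library with the lowest levels of 6 ERK genes. The lowest was in *Ltf*-KO 2, where *Dusp4*, *Spry2*, *Spred1*, *Etv4* and *Etv5* were highest. *Dusp6* went the other way, with its lowest value in *Ltf*-KO 2 (34.03 TPM) and 37.39 TPM in *Ltf*-KO 3. *Spry1* was low in both libraries (18.77 and 18.58 TPM). All 7 differentiation genes of the list (*Myog*, *Mymk*, *Ckm*, *Myh3*, *Actc1*, *Tnnt1* and *Ttn*) were highest in *Ltf*-KO 3. Their summed level was 1169, 1453 and 1006 TPM in WT and 1262, 992 and 1735 TPM in *Ltf*-KO libraries, while the summed level of the 10 ERK genes was 444, 432 and 444 TPM in WT and 464, 474 and 415 TPM in *Ltf*-KO libraries. The library with the highest of one sum had the lowest of the other in both directions. In WT too replicate 2 had the most differentiation RNA and the least RNA of the ERK genes. Other libraries did not keep this order. *Ltf*-KO 1 exceeded WT 1 and WT 3 in both sums. WT 3 had the least differentiation RNA of the WT libraries but not the most RNA of the ERK genes (443.69 TPM against 444.43 TPM in WT 1). In *Ltf*-KO 3 the endothelial sum was lowest (4.50 TPM, beside 4.86 TPM in WT 2), with 1 of 3 tested markers lowest there. The fibroblast sum was lowest there too (102.16 TPM), but close to WT 3 (102.77 TPM), and 0 of 5 tested markers were lowest there. The smooth muscle and pericyte sum was highest there (625 TPM), mostly through *Acta2* (593.04 TPM). *Cspg4* of the same list was lowest there, at 30.76 TPM against 32.16 to 41.07 TPM in the other libraries. The Schwann markers summed to 11.2 TPM. The part of these differences in the levels of the ERK genes was not tested.

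**Figure D5:**
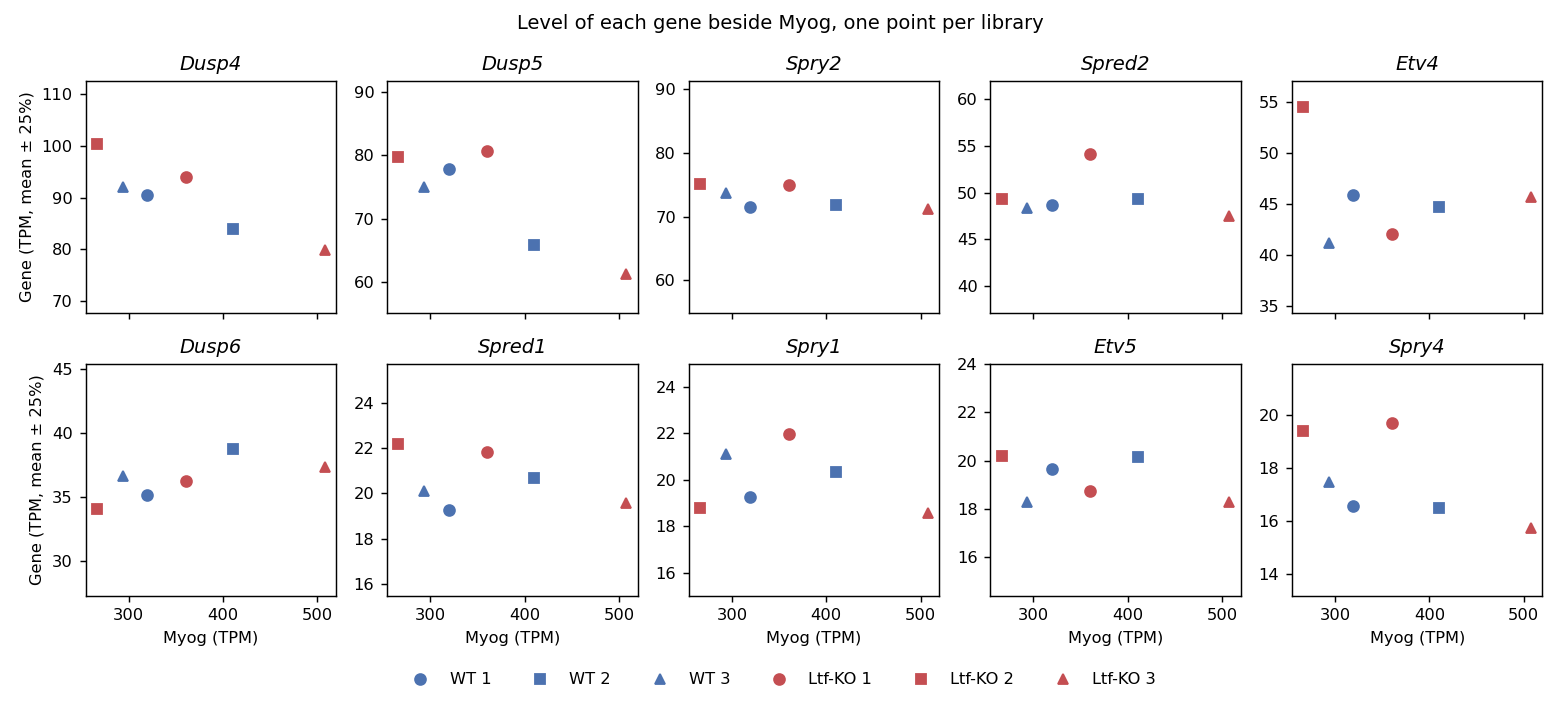
TPM of each of the 10 genes (vertical axis, from 25% below to 25% above its mean) against TPM of *Myog* (horizontal axis), with 1 point per library, WT in blue and *Ltf*-KO in red. *Dusp4* is at 100.34 TPM where *Myog* is lowest (266.24 TPM) and at 79.86 TPM where it is highest (507.77 TPM). *Dusp6* goes the other way, at 34.03 and 37.39 TPM in the same libraries.

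Of 52 other genes of the pathway 51 were tested, and *Spry3* had no row of its name. At an unadjusted p under 0.05, 1 of them was lower in *Ltf*-KO and 0 were higher, against 3.78% of all tested genes in either direction, and 0 had an adjusted p under 0.05 in the limma fit. Among 7 other MAP kinase phosphatases 6 were higher and 1 lower, with a median log2 fold change of 0.050 and 0 at an unadjusted p under 0.05. Of these *Dusp1*, an immediate early gene, was at 41.3 ± 1.17 TPM in WT and 43.8 ± 1.66 TPM in *Ltf*-KO (SD, n = 3), and *Dusp10*, whose protein prefers p38 and JNK, at 18.7 ± 0.781 and 18.9 ± 1.63 TPM. Among 9 other negative regulators 6 were higher and 3 lower, with a median of 0.0035. *Errfi1*, a feedback inhibitor of the EGF receptor, was at 330 ± 21.8 TPM in WT and 333 ± 52.8 TPM in *Ltf*-KO, and *Rasa1*, a RAS GTPase-activating protein, at 217 ± 1.47 and 229.9 ± 18.5 TPM (SD, n = 3). *Errfi1* was at 273.00 TPM in *Ltf*-KO 3 against 305.07 to 370.53 TPM in the other libraries.

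Among 15 other genes that ERK activity raises, 10 were higher and 5 lower in *Ltf*-KO, with a median log2 fold change of 0.022 and 0 at an unadjusted p under 0.05. *Ccnd1*, which encodes cyclin D1, was at 324 ± 6.16 TPM in WT and 325 ± 3.03 TPM in *Ltf*-KO, and *Plaur*, the urokinase receptor, at 209 ± 8.03 and 207 ± 10.1 TPM (SD, n = 3). *Ltf*-KO 3 was the lowest library for 10 of these 15 genes and the highest for 0, and its median difference from the mean of the other *Ltf*-KO libraries was -14.2%, beside -8.52% for the 10 genes described here and -1.23% over all tested genes. Among 20 genes of the cascade itself 12 were higher and 8 lower, with a median of 0.032, and *Ltf*-KO 3 was lowest for 2 of them. *Mapk3*, which encodes ERK1, was at 83.0 ± 3.36 TPM in WT and 84.9 ± 4.41 TPM in *Ltf*-KO (SD, n = 3). The gene with an unadjusted p under 0.05 was *Grb2*, the adaptor between receptors and SOS, at 88.86, 82.54 and 87.82 TPM in WT and at 75.16, 76.78 and 78.03 TPM in *Ltf*-KO libraries. Its log2 fold change was -0.17, and it was 1 of 3 among these 51 genes whose genotypes did not overlap, with *Dusp8* and *Cbl* (named after their values were seen), against 8.46% of all tested genes. In the limma fit its unadjusted p was 0.0061 and its adjusted p was 0.999.

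By pattern over the 6 libraries, the genes at or above 10 TPM on average that were most like the mean of the 10 ERK genes were *Ggact*, *Pi4k2b*, *Ext1*, *Nus1* and *Bag2*, with a Pearson r of 0.980 (*Bag2*) to 0.999 (*Ggact*). They are given as a description of 8062 genes compared over 6 points, of which 26 had an r of at least 0.95. Over the libraries *Ggact* varied by 6.47% and *Ext1*, a heparan sulfate polymerase, by 36.7% (highest over lowest).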

How the data were processed

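RNA-seq of 3 WT and 3 *Ltf*-KO SC libraries was analysed, each grouped by its sample title. The authors deposited TPM values with 2 decimals for 55416 genes, 1 column per library. TPM was inferred from the nearly equal column totals, as the labels and the paper name no unit. Per the submitters' processing notes the genome build is GRCm39. The aligner, counting tool and annotation release are not given in the sources used here, and read depth is unknown, so precision was judged from the spread between replicates.

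Genes whose mean reached 1 TPM were tested on log2(TPM + 1) with limma 3.58.1 in R 4.3.3 (lmFit, eBayes with a trend, no covariate, two-sided), with Benjamini-Hochberg adjustment over 12956 genes and a threshold of 0.05. The fit was tested on simulated data with independent noise for each gene. At an adjusted limma p under 0.05 it recovered 69% of 1.5-fold and 95% of 2-fold changes set in genes of at least 10 TPM. With no change set it made 0 calls. Smaller changes, and shifts shared by several genes, were not simulated. Shares within families were compared with an exact permutation test. The ERK genes and all lists were chosen with earlier results of these data known. Genes named are the 10 members, *Ltf*, *Mapk3*, and of each other list those at an unadjusted p under 0.05, otherwise the 2 highest, plus 5 genes of like pattern. Family members and markers are named as context. 1 further gene that the rule names is not reported here. Promoter windows are from RefSeq (GRCm38.p6), matched by symbol for 7 of 10 genes, and coordinates of different builds were not mixed. Alternatives were a pseudocount of 0.1, no filter, a mean of at least 10 TPM, quantile normalization, median-of-ratios scaling, the replicate number as a block, and each library left out. For shares, the median of libraries was tried.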

Additional observations from a re-analysis of the deposited data

How the results depend on the processing

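For the 10 ERK genes the count at an adjusted p under 0.05 from limma was 0 under all 12 alternatives. At an unadjusted p under 0.05 it was 0 to 1 with a library left out (1, *Spry4*, without *Ltf*-KO replicate 3) and 0 under the others. The number higher in *Ltf*-KO was 7, and 4 to 9 with a library left out. Their median log2 fold change was 0.032, and -0.00061 to 0.10 with a library left out. It was 0.024 with quantile normalization and 0.022 with median-of-ratios scaling, while the median of all genes went from 0.011 to -0.0020 and 0.0013.

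Of 120 log2 fold changes of single members under the alternatives, 110 kept their sign and 10 did not, all with a library left out. The ranges were -0.033 to 0.13 for *Dusp4*, -0.059 to 0.14 for *Dusp5*, -0.11 to 0.0065 for *Spry1*, -0.010 to 0.082 for *Spred2*, -0.00079 to 0.18 for *Etv4* and -0.061 to 0.0076 for *Etv5*. *Dusp6*, *Spry2*, *Spry4* and *Spred1* kept their sign under each alternative. With a library left out, the difference in share (*Ltf*-KO minus WT) ran from -0.945 to 1.05 percentage points for *Dusp5*, -2.08 to 0.447 for *Dusp6* and 0.913 to 2.82 for *Etv4*, and the exact test could not pass 0.05 in any of these comparisons.

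Over all genes the count at an adjusted p under 0.05 was 0, and 0 to 6 with a library left out. At an unadjusted p under 0.05 it was 490, and it was 890 with no filter (26553 genes tested) and 281 when the mean had to reach 10 TPM (8072 tested). Of the other genes of the pathway 1 had an unadjusted p under 0.05, and 1 to 4 did with a library left out (3 and 2 without WT replicates 2 and 3, respectively, and 4 without *Ltf*-KO 3). Other causes were not tested.

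Same-numbered libraries did not deviate together (correlations of -0.041, -0.058 and -0.088). Over 3 libraries a genotype this cannot tell whether they were prepared together, and nothing given pairs them. With the replicate block the counts were 380 of all genes and 0 of the 10 ERK genes at an unadjusted p under 0.05. Without counts of reads, depth limits could not be set.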
